A study of Homo sapiens with 6 samples.

Results

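Translation initiation factor genes were taken as all genes whose array name begins with EIF. The cap-binding genes EIF4E, EIF4E2 and EIF4E3, the Y-linked EIF1AY and pseudogenes were left out. This gave 52 of 36328 gene names, read by 79 probes. RNA carrying m3G or m7G caps was immunoprecipitated from MOLT-4, a human T-cell acute lymphoblastic leukaemia line, and the recovered RNA was read on 1-colour Agilent arrays. The control cells, called mock, received an empty vector. The other cells received NUDT16, the gene of an enzyme that removes caps from RNA. There were 3 arrays a group, numbered 1 to 3. Both groups share the cell line and the vector transfection, and a second line was not analysed here. The labels do not say whether the replicates came from separate cultures, so p-values measure the spread between these arrays, which may be technical. The comparison asks whether capped initiation factor mRNAs are less or more abundant in the eluate when NUDT16 is supplied. Input RNA was not analysed here, so less of an mRNA in the cell and less of it carrying a cap cannot be told apart, nor can fewer cells and less RNA per cell.

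Initiation brings the small ribosomal subunit, charged with initiator methionyl-tRNA by eIF2, to the capped end of an mRNA. The eIF4F complex binds the cap and unwinds the leader, eIF3 holds the small subunit and the mRNA together, eIF1 and eIF1A keep the subunit scanning until it meets a start codon, and eIF5B joins the large subunit. Supply of active eIF2 is a main control point: eIF2B recharges it with GTP, and stress-activated kinases phosphorylate it and so block eIF2B.

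The probe and cap-adjacent sequences of the genes on which the results turn are shown first. EIF3A had the lowest mean difference of the 50 genes tested and EIF5B the lowest over replicates 1 and 3, and their signal came from the probes whose first 30 of 60 bases are given here, in lower case throughout.
EIF5B, probe A_23_P218608, chr2:100015969-100016028 (hg19, plus strand): ggacactgatggacttaagtatggaaggaa
EIF3A, probe A_23_P86550, chr10:120795328-120795387 (hg19, minus strand): gcaccatatccacaggaggttggaaaaacc

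Several initiation factor mRNAs belong to the terminal oligopyrimidine class, whose mRNAs begin at a C followed by an unbroken run of pyrimidines just after the cap. The annotated starts were therefore read from the RefSeq promoter table (GRCh38.p14), which held 43 of the 52 genes under their current symbols. Each line gives 10 bases before the start and 20 from it, and capitals mark the unbroken C and T run that begins at the annotated start.
EIF5B, chr2:99337379-99337408, plus strand: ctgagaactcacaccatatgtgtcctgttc
EIF1AX, chrX:20141819-20141848, minus strand: gagtcgcggcgccatttgctgccgccgagc
EIF4B, chr12:53006446-53006475, plus strand: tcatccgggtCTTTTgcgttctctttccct
EIF4A2, chr3:186783567-186783596, plus strand: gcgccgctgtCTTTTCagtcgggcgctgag
EIF3M, chr11:32583821-32583850, plus strand: gcccagttccCTTTTCCggtcggcgtggtc
EIF2A, chr3:150546777-150546806, plus strand: cgagcggtttCTCTTTCCgggacaacatgg
EIF3D, chr22:36529147-36529176, minus strand: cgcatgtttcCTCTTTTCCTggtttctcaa
EIF3F, chr11:7987327-7987356, plus strand: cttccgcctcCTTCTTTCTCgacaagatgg
EIF3K, chr19:38619178-38619207, plus strand: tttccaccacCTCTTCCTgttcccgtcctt
EIF2D, chr1:206612446-206612475, minus strand: ccagccgggcCCTTTTCgcggccgggcccc
A start at C followed by at least 4 bases of C or T, searched only at the annotated start and on the transcript's strand, was found for 8 of the 43 genes (18.6%). The same start was found for 1429 of 35116 promoters (4.07%). The 8 genes are those shown with capitals, and EIF5B and EIF1AX have annotated starts without the run.

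Signals are given as log2 intensity minus the array's own 75th percentile, taken over the probes that lay well above background on all 6 arrays. That percentile was 7470, 2700 and 4720 intensity units on mock replicates 1, 2 and 3, and 7720, 224 and 6950 on NUDT16 replicates 1, 2 and 3. NUDT16 replicate 2 therefore stood apart from the other 5 arrays. Across all 50586 probes for cell RNA it had 13.6% well above background, against 36.1% to 49.6% on the other arrays. Both NUDT16 probes were at background on every array, so they do not check the labels. The 1 probe called in the whole comparison, for the NUDT16 pseudogene NUDT16P1, was well above background on 3 of 3 NUDT16 and 0 of 3 mock arrays. Of 12 T-lineage markers, 10 were well above background on all 3 mock arrays and 9 on all 3 NUDT16 arrays, and CD7 and RAG1 were not. Their summed signal, in multiples of the array's 75th percentile, was 18.9 to 20.8 in mock and 20.3 to 24.95 in NUDT16 arrays, and its part in the results was not tested. None of 4 fibroblast and 3 myeloid markers was well above background on all arrays of a group. Of 4 epithelial markers, KRT8 and KRT18 were above background on all mock arrays.

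Initiation factor mRNAs were widely detected in the cap immunoprecipitate. The mock arrays detected 76, 74 and 78 of the 79 probes, and the NUDT16 arrays 71, 42 and 76. In percent these were 96.2, 93.7 and 98.7 in mock, where all probes had 47, 36.1 and 48.6. In NUDT16 arrays they were 89.9, 53.2 and 96.2, where all probes had 39.4, 13.6 and 49.6. The genes were thus detected more often than the average probe on every array, and least on NUDT16 replicate 2. No initiation factor spot was saturated. Of the 79 probes, 41 (51.9%) were above background on all 6 arrays, against 13% of all probes, and 30 missed it on NUDT16 replicate 2 alone. One EIF3E probe, A_33_P3339885, was above background on no array, while the other EIF3E probe was on all 6.

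**Figure D1:**
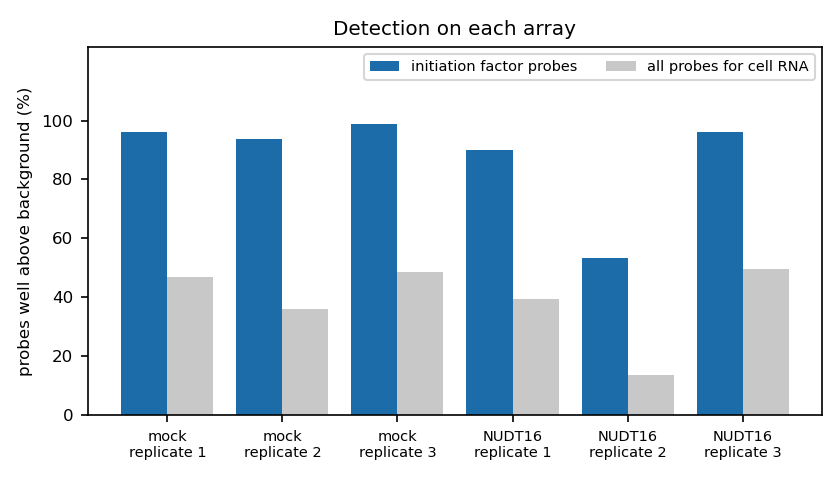
Percentage of probes well above background (vertical axis, starting at 0) on each of the 6 arrays, for the 79 initiation factor probes (blue bars) and all 50586 probes for cell RNA (grey bars). The blue bars lie between 89.9% and 98.7% on 5 arrays and at 53.2% on NUDT16 replicate 2, where the grey bar is at 13.6%.

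A probe was tested if every array of mock, or every array of NUDT16, detected it well above background, which kept 74 of the 79 initiation factor probes (93.7%) and 17765 of all 50586 (35.1%). These stand for 50 of the 52 genes, each represented by its tested probe of highest mean signal. EIF2AK3, the endoplasmic reticulum stress kinase PERK, and EIF4E1B, a germline relative of the cap-binding protein, did not pass. Of the 50 genes, 32 had a representative probe above background on all 6 arrays. For 17 others NUDT16 replicate 2 was the only array below it, with log2 signals there of -5.77 to -3.87, so their differences in that replicate rest on a value at background. These were EIF1B, EIF5, EIF2A, EIF2S1, EIF2S2, EIF2B1, EIF2B4, EIF2B5, EIF2AK1, EIF2AK4, EIF3J, EIF4G1, EIF4G3, EIF4ENIF1, EIF5AL1, EIF2C2 and EIF2C4. EIF5A2 was above background on 4 arrays.

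No initiation factor probe was called in either direction. In limma with Benjamini-Hochberg adjustment over all 17765 probes the smallest adjusted p among the 74 probes was 0.9992. Of all probes tested, 0.00563% were called higher and 0% lower. At an unadjusted p under 0.05 limma gave 0 of the 74 probes and 0.045% of all. The 74 probes had a median standard error of 0.66 (log2), so a 2-fold difference between group means lies within 2 standard errors. For no initiation factor probe did the 3 mock and 3 NUDT16 arrays separate without overlap, and of all probes 0.281% separated with NUDT16 lower and 0.31% with NUDT16 higher.

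The 50 genes lay mostly on one side. By the filter, 18 of the 50 (36%) entered through mock alone and 0 through NUDT16 alone. Of all 13734 genes, 8048 (58.6%) entered through mock alone and 32 through NUDT16 alone. A gene that enters through the group where it is bright leans towards that group, and the filter's part in the result was not tested. In the mean over arrays 40 were lower and 10 higher in NUDT16, with a range from -1.80 to 0.57 and a median of -0.39, where the median of all 13734 genes tested was -0.06. Below the all-gene median lay 36 of the 50 (72%). Relative to that median the initiation factor genes were at -0.32, and also with median scaling or no scaling, at -0.17 with quantile normalization and at -0.39 with another background correction (normexp), although the normexp median itself was 0.071. A difference of at least 2-fold towards lower signal was seen for 7 of 50 genes (14%), against 6.45% of all genes, and towards higher signal for 0 of 50, against 1.44%. The 7 were EIF3A, EIF1AX, EIF5B, EIF2S2, EIF4G2, EIF2AK2 and EIF3J, of which EIF2S2 and EIF3J entered through mock alone. Among genes above background on all 6 arrays, a count added after the data were seen, 5 of 32 (15.6%) were at least 2-fold lower, against 3.75% of all such genes, and 0 of 32 at least 2-fold higher, against 2.32%. Without NUDT16 replicate 2 the median of the 50 genes was -0.06, with all genes at -0.12. Over replicates 1 and 3, which drops both arrays of replicate 2, it was -0.25, with all genes at -0.19. Relative to the all-gene median of that setting it was at -0.06. Among genes above background on all 6 arrays the median was -0.31 for 32 initiation factor genes and 0.18 for 5654 genes.

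Each slide carried the mock and the NUDT16 array of 1 replicate number, and these same-numbered arrays varied together. The differences were therefore also read within each pair. The median over the 50 genes was -0.47 in pair 1, -0.81 in pair 2 and 0.02 in pair 3, and that over all genes was -0.32, 0.12 and -0.03. Initiation factor genes lay furthest below other genes in pair 2, and slightly above them in pair 3. Lower in all 3 pairs were 18 of 50 genes (36%), against 25.8% of all genes, and higher in all 3 were 5 of 50 (10%), against 17.4%. Among genes above background on all 6 arrays 11 of 32 (34.4%) were lower in all 3, against 18.4%, and 5 of 32 (15.6%) higher, against 27.8%. Using pairs 1 and 3 alone, a count chosen after the data were seen, 20 of 50 (40%) were lower in both, against 45.4%, and 9 of 50 (18%) were higher in both, against 22.5%. Without pair 2 the share of lower genes was thus no larger than among all genes tested. Of these, 58.6% had entered through mock alone, against 36% of the initiation factor genes. This count was not made for genes above background on all 6 arrays. There the median over replicates 1 and 3 was -0.13 for the 32 initiation factor genes and -0.05 for all 5654.

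Blocking on the replicate number brought the median standard error of these probes to 0.34, and again no member was called (smallest limma adjusted p 0.4671). At an unadjusted p under 0.05 the blocked fit gave 15 of 74 probes lower (20.3%), against 8.94% of all probes, and 0 higher, against 0.816%. The 15 probes belong to 11 genes, namely EIF1AX, EIF2AK2, EIF2B3, EIF2C2, EIF2C3, EIF2S2, EIF3A, EIF3J, EIF4B, EIF4G2 and EIF5B. For EIF2S2, EIF3J, EIF2C2, EIF4G2 and EIF2C3 the probe was at background on NUDT16 replicate 2 and entered through mock alone. The same held for a probe each of EIF1AX, EIF2B3 and EIF4B, and the filter's part in this count was not tested. The representative probes of EIF4B, EIF4G2 and EIF2C3 had a blocked limma p of 0.053, 0.058 and 0.071. Overlapping probes of EIF1AX and of EIF2B3 were counted separately. A blocked fit on replicates 1 and 3 called 3 of the 74 probes lower (4.05%), against 3.38% of all probes, for EIF5B, EIF3A and EIF4ENIF1. That fit has 1 residual degree of freedom and gave each probe the same standard error, 0.30, pooled over all probes. Its p-values therefore follow the size of the difference alone.

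**Figure D2:**
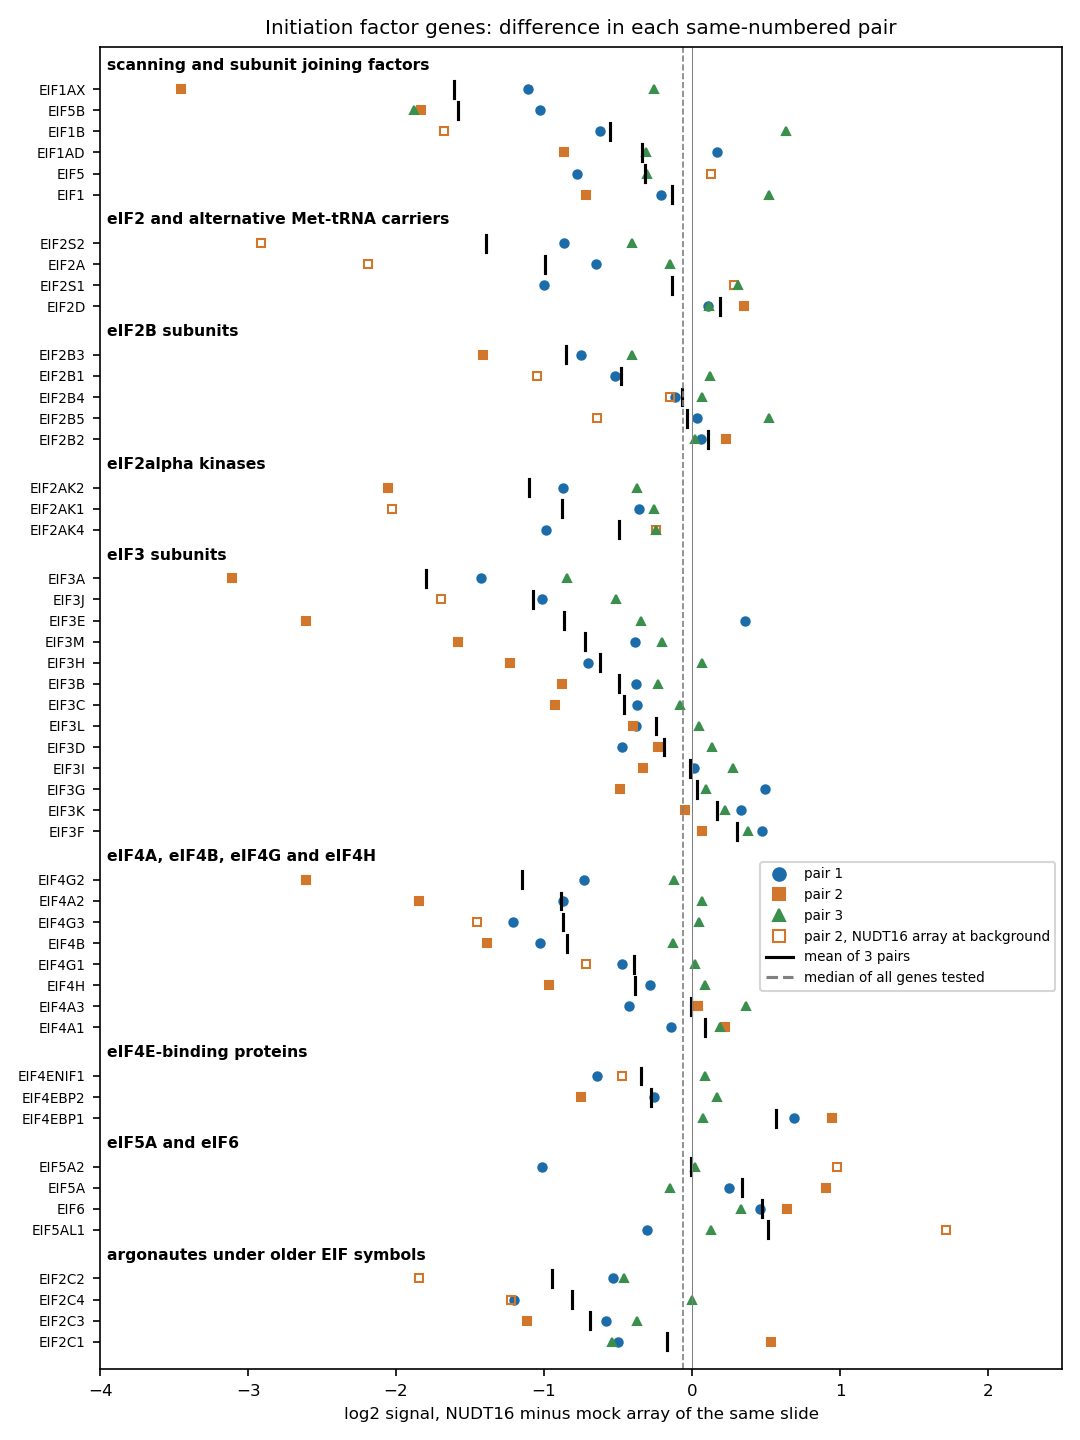
Difference in log2 signal, NUDT16 minus the mock array of the same slide (horizontal axis), for the 50 tested genes grouped by role (rows), in pair 1 (circles), pair 2 (squares) and pair 3 (triangles), with the mean as a black tick. Open squares mark genes whose NUDT16 replicate 2 probe was not well above background, and the dashed line is the all-gene median of -0.06. The squares reach furthest left in most rows, while EIF5B has all 3 pairs at -1.03 or lower. Scaling by the median or not at all moves the means to the left and turns those of the higher genes below 0.

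Scanning and subunit joining factors were lower in the mean in 6 of 6 genes (median -0.44), with none called. EIF5B, the GTPase that joins the large ribosomal subunit, read -3.74, -1.24 and -1.85 on mock replicates 1 to 3 and -4.77, -3.07 and -3.73 on NUDT16 replicates 1 to 3. Replicate 1 was the lowest array in each group, and the groups overlap because mock replicate 1 lay below NUDT16 replicate 2 and at about the level of NUDT16 replicate 3. The difference was -1.58 (SE 0.76, limma adjusted p 0.9992) between group means of -2.28 ± 1.30 (SD, n = 3) for mock and -3.86 ± 0.85 (SD, n = 3) for NUDT16. The exact two-sided permutation p was 0.3, and the smallest that 3 arrays against 3 can give is 0.1. Here and below, that permutation ignores the pairing of arrays by replicate number. With the replicate block the SE of EIF5B was 0.34 and its limma adjusted p 0.4671. Within pairs the differences were -1.03, -1.83 and -1.88, or -0.71, -1.96 and -1.85 relative to the all-gene median of each pair. EIF5B kept its direction in 19 of 19 other settings and lay between -2.31 and -1.06 when an array was left out.

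The EIF5B difference did not rest on NUDT16 replicate 2. Counted from the lowest among the 5654 genes above background on all 6 arrays, it ranked 190 in pair 1, 250 in pair 2 and 2 in pair 3. By the mean of pairs 1 and 3 it ranked 1. The limma fit on these replicates with the block gave -1.45 (adjusted p 0.000549), or -1.26 relative to the all-gene median of -0.19 in that fit. That p follows the size of the difference alone, since every probe has the same standard error in this fit. EIF5B had been singled out from these same arrays, so the rank and the adjusted p describe them and test nothing.

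EIF1AX, the X-linked copy of eIF1A, read -1.56, 0.36 and 0.27 in mock and -2.67, -3.09 and 0.01 in NUDT16 arrays. NUDT16 replicate 2 was its lowest array and replicate 3 was nearly level between groups. The difference was -1.61 (SE 0.87, limma adjusted p 0.9992), with pairs at -1.11, -3.45 and -0.26 and an exact two-sided permutation p of 0.2. It ranked 1 from the lowest of 5654 genes in pair 2, 114 in pair 1 and 1354 in pair 3. An EIF1AX probe sharing 38 of its bases with this one gave -1.72, and the third EIF1AX probe gave -0.49. EIF1AD, a protein with an eIF1A-like domain, was at -0.34 and had the opposite sign in pair 1 (0.17). EIF1, which guards start codon choice, was at -0.14, its close copy EIF1B at -0.55 and EIF5, which triggers GTP hydrolysis on eIF2, at -0.32. EIF1B and EIF5 were at background on NUDT16 replicate 2.

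Of the 4 tested genes for eIF2 and other initiator tRNA carriers 3 were lower and 1 higher in the mean, with none called. EIF2D, which can deliver tRNA to the ribosome without GTP, read -2.89, -3.50 and -3.13 in mock and -2.78, -3.15 and -3.02 in NUDT16 arrays. Each NUDT16 array was slightly above its partner, and the difference was 0.19 (SE 0.57), although it fell below 0 with median scaling or none. EIF2S2, the beta subunit of eIF2, was at -1.40 (SE 0.70) and lower in all 3 pairs, by a second probe at -0.52. Its NUDT16 replicate 2 value was at background, and pairs 1 and 3 alone were at -0.87 and -0.41. EIF2S1, the alpha subunit that the stress kinases phosphorylate, was at -0.13, with NUDT16 replicate 2 at background. EIF2A, an alternative initiator tRNA carrier, was at -0.996 by one probe and 0.25 by the other. Both EIF2A probes were at background on NUDT16 replicate 2, and the second also on NUDT16 replicate 1. Over replicates 1 and 3 these probes were at -0.40 and -0.09. EIF2S3, the gamma subunit, was not analysed here.

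The exchange factor eIF2B stood closer to other genes, with a median of -0.07 over its 5 subunits. EIF2B3, the gamma subunit, was the exception. It read -1.44, -1.15 and -0.80 in mock and -2.18, -2.56 and -1.20 in NUDT16 arrays, so each NUDT16 array was below its partner while the groups overlap. The difference was -0.85 (SE 0.62, limma adjusted p 0.9992), and its 3 probes, of which 2 share 31 bases, lay between -0.96 and -0.85. EIF2B2, the beta subunit, was at 0.10 and higher in 3 of 3 pairs, the mean turning below 0 with median scaling or none. EIF2B1, EIF2B4 and EIF2B5 were at -0.48, -0.07 and -0.03, and the EIF2B4 value is the median of the group. All of these were at background on NUDT16 replicate 2 and entered through mock alone.

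Of the 3 tested kinases of eIF2 none was called, and only EIF2AK2 was above background on all 6 arrays. EIF2AK2, the double-stranded RNA sensor PKR, read -2.27, -0.99 and 0.06 in mock and -3.14, -3.04 and -0.31 in NUDT16 arrays. Its difference was -1.10 (SE 0.87) with pairs at -0.88, -2.05 and -0.37, the largest gap again being in pair 2. EIF2AK1, the haem-regulated kinase HRI, was at -0.88, and EIF2AK4, the amino acid starvation sensor GCN2, at -0.49. Both passed the filter through mock alone and were at background on NUDT16 replicate 2, so their pair 2 values rest on background.

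**Figure D3:**
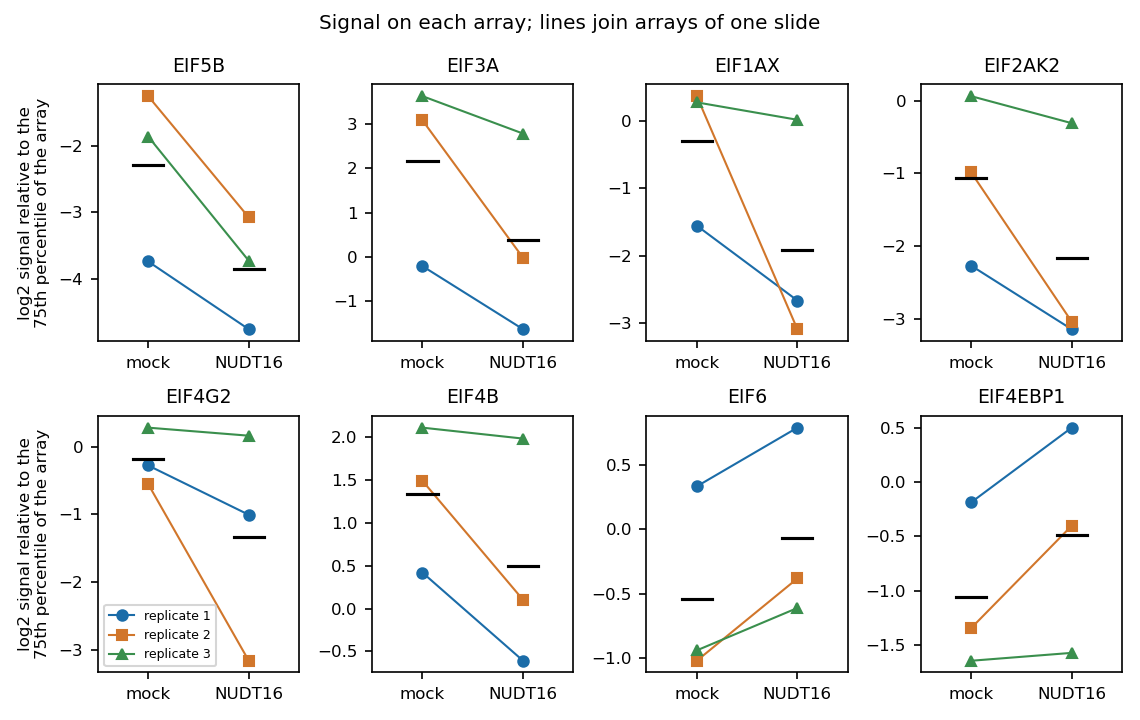
Log2 signal relative to the 75th percentile of the array (vertical axis, a separate scale in each panel) for 8 genes on the 3 mock and 3 NUDT16 arrays. Coloured lines join arrays of the same slide and black bars are group means. EIF5B and EIF3A have lines that go down in all 3 replicates, EIF1AX and EIF4G2 drop mainly in replicate 2, and EIF6 and EIF4EBP1 have upward lines that median scaling or no scaling turns downward in the mean.

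Of the 13 subunits of eIF3, the scaffold that binds the small subunit, 10 were lower and 3 higher in the mean (median -0.46). The lower share was 76.9%, against 54.2% of all genes. Over replicates 1 and 3 the median of the eIF3 genes was -0.17, with all genes at -0.19. EIF3A, the largest core subunit of eIF3, read -0.21, 3.09 and 3.63 in mock and -1.64, -0.02 and 2.79 in NUDT16 arrays. Its values spread more between replicate numbers than between groups, and each NUDT16 array lay below its partner. The difference was -1.80 (SE 1.17, limma adjusted p 0.9992), the lowest of the 50 genes, with an exact two-sided permutation p of 0.3. Within pairs it was -1.43, -3.11 and -0.85, ranking 20, 4 and 57 from the lowest of 5654 genes. Leaving out an array moved it between -3.001 and -0.79, and the blocked fit on replicates 1 and 3 gave -1.14 (limma adjusted p 0.01161). Here too the p follows the size of the difference alone.

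The difference of EIF3E, a subunit of the eIF3 core, rested on pair 2 alone. It read 0.02, 1.73 and 1.24 in mock and 0.38, -0.88 and 0.90 in NUDT16 arrays, a difference of -0.86 (SE 0.70). Pair 2 gave -2.61, and the mean of pairs 1 and 3 was 0.0079. EIF3M read 0.50, 1.31 and 0.86 in mock and 0.12, -0.27 and 0.66 in NUDT16 arrays, a difference of -0.72 (SE 0.60), with every NUDT16 array below its partner. EIF3J, a loosely attached subunit, was at -1.08 by one probe and -0.22 by another.

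The other eIF3 subunits lay on both sides of the all-gene median of -0.06. EIF3H was at -0.62, EIF3B at -0.50, EIF3C at -0.46, EIF3L at -0.24, EIF3D at -0.19 and EIF3I at -0.01. EIF3D had a second probe at 0.22, with pairs at -0.25, 1.74 and -0.82. The EIF3C probes cannot be told from the near-identical copy EIF3CL. EIF3F was at 0.31 and higher in all 3 pairs (0.47, 0.07 and 0.38), EIF3K at 0.17 and EIF3G at 0.04. Median scaling or no scaling shifts the means of all genes down and puts these 3 below 0, while relative to the all-gene median they are at 0.37, 0.23 and 0.10 in each case.

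Among the helicase eIF4A, its helpers eIF4B and eIF4H and the scaffold eIF4G, 7 of 8 genes were lower in the mean (median -0.62). EIF4G2, an eIF4G relative without the eIF4E-binding region, read -0.28, -0.55 and 0.28 in mock and -1.01, -3.16 and 0.16 in NUDT16 arrays. The low value is that of NUDT16 replicate 2, and the difference was -1.15 (SE 0.81), with a second probe at -1.08. EIF4B read 0.42, 1.49 and 2.11 in mock and -0.61, 0.10 and 1.98 in NUDT16 arrays, a difference of -0.85 (SE 0.77). Its 3 probes gave -1.36 to -0.85 and each was lower in 3 of 3 pairs.

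EIF4A2 and EIF4A1 encode close copies of the same helicase. EIF4A2 read -0.08, 0.73 and 0.28 in mock and -0.95, -1.11 and 0.35 in NUDT16 arrays, a difference of -0.88 (SE 0.63) that was not seen in pair 3 (0.07). The 4 EIF4A1 probes lay between -0.04 and 0.09. The difference between these 2 genes was not tested. EIF4A3, the helicase of the exon junction complex, was at -0.01, and EIF4H at -0.39 by one probe and -0.06 by another. EIF4G1 was at -0.39, and EIF4G3 at -0.87 by one probe and -0.07 by another. These EIF4G1 and EIF4G3 probes were at background on NUDT16 replicate 2 and entered through mock alone.

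The eIF4E-binding proteins compete with eIF4G for the cap-binding protein, and 1 of the 3 tested genes was higher and 2 lower in the mean. EIF4EBP1 read -0.19, -1.34 and -1.64 in mock and 0.50, -0.40 and -1.57 in NUDT16 arrays. Each NUDT16 array was above its partner, and the groups overlap widely. The difference was 0.57 (SE 0.71, exact two-sided permutation p 0.6, limma adjusted p 0.9992), the highest of the 50 genes, and fell below 0 with median scaling or none. EIF4EBP2 was at -0.28 and its other probe, at background on NUDT16 replicate 2, at 0.05. EIF4ENIF1, the eIF4E transporter, was at -0.34 with NUDT16 replicate 2 at background, and its other probes at -0.44 and -0.07. The last of these is the probe called in replicates 1 and 3 (-1.07, limma adjusted p 0.0204). It was at background on NUDT16 replicate 1, its pairs were -1.36, 1.92 and -0.77, and the other EIF4ENIF1 probes were not called there.

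Genes for eIF5A and eIF6 were the only one of the 9 role groups with a median above 0, at 0.41 over 4 genes, which is 0.47 above the all-gene median, and median scaling or no scaling put EIF5A and EIF6 below 0. The group's median came from pair 2: it was -0.03, 0.94 and 0.07 in pairs 1 to 3, and -0.02 over replicates 1 and 3. EIF6, which keeps free large subunits from joining small ones, read 0.33, -1.02 and -0.94 in mock and 0.79, -0.38 and -0.61 in NUDT16 arrays. Its difference was 0.47 (SE 0.66, exact two-sided permutation p 0.5) and positive in 3 of 3 pairs, by 0.46, 0.64 and 0.33, before any such shift. EIF5A, the hypusine-carrying factor that relieves stalled ribosomes, read -1.35, -0.58 and -1.14 in mock and -1.10, 0.32 and -1.29 in NUDT16 arrays, a difference of 0.34 (SE 0.65) that turned to -0.17 without NUDT16 replicate 2. The near-identical copy EIF5AL1, at 0.51, was at background on that array, and EIF5A2 was at -0.00.

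The array names 4 argonaute genes EIF2C1 to EIF2C4, now AGO1 to AGO4, which encode the proteins that hold microRNAs. They share the older name and not the initiation role, and without them the median was -0.37 over 46 genes. EIF2C3 read -2.20, -1.57 and -0.90 in mock and -2.78, -2.69 and -1.27 in NUDT16 arrays, a difference of -0.69 (SE 0.66) with every pair lower. EIF2C1 read -1.91, -0.35 and -0.01 in mock and -2.41, 0.18 and -0.55 in NUDT16 arrays, a difference of -0.17 that ranged from -0.74 to 0.57 when an array was left out. EIF2C2 and EIF2C4 were at -0.94 and -0.81, with NUDT16 replicate 2 at background.

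**Figure D4:**
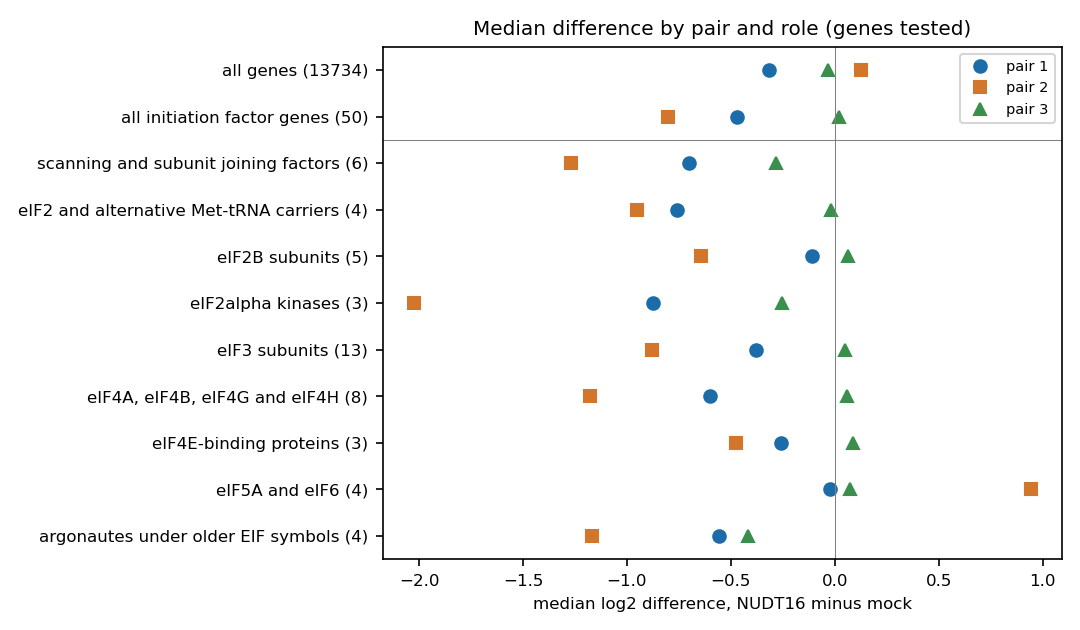
Median log2 difference, NUDT16 minus mock (horizontal axis), in pair 1 (circles), pair 2 (squares) and pair 3 (triangles), for all genes tested, the 50 initiation factor genes and each role group (rows, with the number of genes). Pair 2 is lowest in 8 of the 9 role groups and highest for eIF5A and eIF6, while the all-gene medians stay between -0.32 and 0.12.

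Other genes of translation did not form a uniform background. Initiation and recycling factors outside the EIF names, listed together with the initiation inhibitors PAIP2, PAIP2B and PDCD4, had a median of -0.91 over 10 genes. Of these 2 were higher and 8 lower. Only 3 of the 10 were above background on all 6 arrays. Among them the poly(A)-binding protein gene PABPC1 read 2.13, 3.27 and 3.48 in mock and 1.40, 1.24 and 3.37 in NUDT16 arrays (difference -0.96, SE 0.73). Elongation factors, listed together with the kinase gene EEF2K, had -0.11 over 6 of 8 genes tested. Termination factors had -1.004 over 2 of 3 and regulators 0.01 over 7 of 9. Both termination factor genes were at background on NUDT16 replicate 2 and entered through mock alone. Of the 25 genes tested in these 4 lists 9 were higher and 16 lower (median -0.47), and none was called. In pair 2 their median was -1.06, as against -0.51 and -0.11 in pairs 1 and 3, the same order as for the initiation factor genes. Only 11 of the 25 were above background on all 6 arrays, so the pair 2 median rests in part on values at background.

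Genes with and without the pyrimidine run overlapped in their differences. The 8 genes whose annotated start is a C followed by at least 4 pyrimidines had a median of -0.46, and the 33 other tested genes with a sequence had -0.34. The 8 genes run from EIF2A at -0.996, EIF4A2 at -0.88 and EIF4B at -0.85 to EIF3K at 0.17, EIF2D at 0.19 and EIF3F at 0.31. The last 3 were below 0 under median scaling or none. The EIF2A value rests in part on background on NUDT16 replicate 2. Among 6 genes listed from knowledge of the terminal oligopyrimidine class, 5 had a value (median -0.85), and these were EIF3A, EIF3E, EIF3F, EIF3H and EIF4B. The other 45 tested initiation factor genes had a median of -0.34. In pair 2 the medians of these sets were -1.39 and -0.72, and over replicates 1 and 3 they were -0.32 and -0.23. The 45 include EIF2A, EIF2D, EIF3D, EIF3K, EIF3M and EIF4A2, whose annotated starts have the run. EIF3A, EIF3E and EIF3H had no start sequence here.

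**Figure D5:**
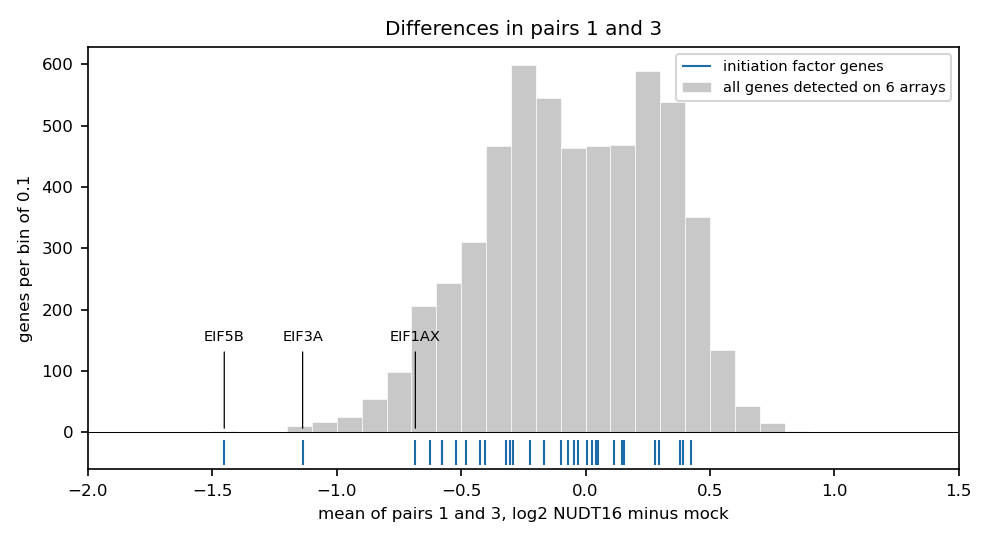
Number of genes (vertical axis) per bin of 0.1 in the mean log2 difference over pairs 1 and 3 (horizontal axis), for the 5654 genes above background on all 6 arrays (grey). Blue ticks below the axis mark the 32 initiation factor genes, which run from EIF5B at -1.45, the lowest of all genes, and EIF3A at -1.14 up to 0.42, while other genes reach 1.11.

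Probes of a gene did not always point the same way. Of 18 genes with several tested probes, 4 had probes of opposite sign (EIF2A, EIF3D, EIF4A1 and EIF4EBP2), and the median spread between probes of a gene was 0.37. For EIF2A, EIF3D and EIF4EBP2 both probes were below 0 over replicates 1 and 3. The EIF4A1 probes lay only between -0.04 and 0.09. The base composition of the probe moved with the difference. Across genes, which are not independent replicates and share the same 6 arrays, the difference correlated with the probe's GC content at Spearman's rho 0.41 over all 13734 genes and 0.25 over the 50 initiation factor genes. By pair it was 0.33, 0.40 and -0.003 over all genes and 0.38, 0.16 and 0.14 over the initiation factor genes, so it was not seen over all genes in pair 3. Initiation factor genes with probes at or below 43.33% GC had a median of -0.49 (29 genes), where all such genes had -0.29, and those above it had -0.24 (21 genes), where all such genes had 0.18. Its part in the result was not tested.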

How the data were processed

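The deposited scanner files hold linear fluorescence intensity per spot from 6 arrays of Agilent design 039494, extracted with Feature Extraction 10.7.3.1. Background was subtracted from the intensity and surrogates stand for spots at background, per the file headers, with no scaling between arrays. The log2 values of the authors' deposited table, whose centring is not given in the sources used here, served as an alternative. The submitters' processing notes name Agilent Feature Extraction and limma.

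Control and outlier spots were left out, log2 processed intensity was shifted by the array's 75th percentile over the probes that all 6 arrays detected, and spots of a probe were averaged. In R 4.3.3, limma 3.58.1 (lmFit, then eBayes, no block) gave two-sided tests of 17765 probes, with Benjamini-Hochberg adjustment at 0.05. The procedure was tested on simulated data with independent noise at the spread left after blocking. Variation shared by same-numbered arrays was not simulated. The number of arrays limits the precision. Same-numbered arrays deviated together from their group means (r 0.84, 0.39 and 0.77 across probes), so the numbers pair the arrays, and number, slide and scan coincide.

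Named genes are the up to 3 of each role group with the largest difference among those detected on all arrays, EIF5B and EIF1AX, genes called in any fit and genes whose probes disagree in sign. The other genes are given by value only. The members, lists and rules were chosen with earlier results of these data known. EIF4EBP1 and EIF4EBP2 were kept, since their ending names a binding protein. Probe positions are those of the files (hg19). An hg19 annotation was not used, so exons and untranslated regions are not given. Of 74 member probes with a RefSeq accession, 74 matched the current gene table, used for names. Alternatives were other scalings, normexp (offset 50), filters, the block, replicates 1 and 3, an intensity trend, array weights, the authors' table, averaging a gene's probes, and leaving out each array. The B-lineage and erythroid marker lists are not reported here.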

Additional observations from a re-analysis of the deposited data

How the results depend on the processing

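No initiation factor probe was called in any planned setting except the blocked fit on replicates 1 and 3, which called 3 of them and 613 probes in all, with 3210 probes at an unadjusted p under 0.05. Over all probes 1 was called, and 0 with no scaling, normexp, no filter, the filter on all 6 arrays or the authors' deposited table, where 1, 1, 160, 2 and 10 probes had a limma p under 0.05 before adjustment. Leaving out an array gave 0 (without mock replicate 2) to 1 probe called, and 0 to 0 of the initiation factor probes. With the replicate block the count stayed at 1 probe and 0 initiation factor probes, and the median at -0.39. The block changed no call. The median of the initiation factor genes moved from -0.39 to -1.07 with median scaling, -1.38 without scaling and 0.071 with normexp, where all genes were at -0.74, -1.06 and 0.46. It lay between -0.80 (without NUDT16 replicate 3) and -0.06 (without NUDT16 replicate 2) when an array was left out.

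Of 435 values for 23 named genes, 402 kept their direction and side of the threshold, 2 passed it (EIF5B and EIF3A in replicates 1 and 3) and 31 changed sign. With median scaling EIF2B2 was at -0.57, EIF2D at -0.49, EIF4A1 at -0.59, EIF4EBP1 at -0.11, EIF5A at -0.34 and EIF6 at -0.20. Without scaling they were at -0.89, -0.81, -0.91, -0.43, -0.66 and -0.52. Both settings shift all genes alike and leave positions relative to the all-gene median as they were. Normexp put EIF1AD at 0.12, EIF2A at 0.081 and EIF4ENIF1 at 0.31, the fit on replicates 1 and 3 put EIF3E at 0.0079, and the mean of its probes put EIF3D at 0.018. The cause was not tested. With an array left out the ranges that cross 0 were -0.18 to 0.32 for EIF2B2, -0.74 to 0.57 for EIF2C1, -0.14 to 0.32 for EIF4A1, -0.57 to 0.042 for EIF3D, -0.95 to 0.15 for EIF4ENIF1, -0.69 to 0.10 for EIF1AD, -0.68 to 0.23 for EIF4EBP2 and -0.17 to 0.64 for EIF5A. The filter on all 6 arrays gives no value for EIF2A and EIF4ENIF1. Signal over background limits NUDT16 replicate 2 most, where 42 of 79 probes were above it.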
